A study of Rattus norvegicus with 16 samples.

Results

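The genes described here are 38 rat genes of the NRF2 pathway, of glutathione metabolism and of the enzymes that remove superoxide and peroxides, followed in cultured hippocampal neurons exposed to hydroxyurea. They were chosen by name, and every array probe whose accession maps to one of them was taken. Of the 38 genes, 37 had a matched probe, 42 probes in all, out of 15715 gene symbols that the array's probes matched. Pgd, an NADPH-making enzyme of the pentose phosphate route, had none. Gclm, the modifier subunit of the enzyme that starts glutathione synthesis, had a single probe that was well above background on 0 of 16 arrays and was not tested. That left 36 genes with a test.

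NRF2, the product of Nfe2l2, is a transcription factor that is held in the cytoplasm and sent for degradation by its partner KEAP1. Oxidants and electrophiles modify KEAP1, NRF2 then enters the nucleus, pairs with small MAF proteins and binds antioxidant response elements in front of its target genes. Those targets make and recycle glutathione, supply NADPH, reduce quinones and peroxiredoxins and export conjugates. In brain, NRF2 activity is known mostly from astrocytes, while neurons are known to hold little of it.

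The cells were primary hippocampal neurons of Sprague-Dawley rat embryos at day 18 (E18), a preparation that also contains glia. Per the labels, cultures were left untreated or received 5 µM hydroxyurea, which blocks ribonucleotide reductase, for 2, 6, 12 or 24 h, with 3 samples in each of the 5 groups. Before the drug was added, the cells were washed and moved to medium whose B27 supplement lacks antioxidants; how long the untreated cultures spent in that medium is not stated, which bears on every comparison of antioxidant genes with them. The labels put the age of the cultures at 6 to 9 days in one field and at days 6 to 8 in another, name hippocampal tissue as the source of the RNA in the extraction text, and do not say whether the samples of a group came from separate cultures, so a p-value here reflects how far these samples differ, possibly for technical reasons only.

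There were 15 samples and 16 one-colour arrays on 2 slides; untreated replicate 1 had an array on each slide. Per array, 64.6% to 70.4% of 30367 probes read well above background. Spots of the same probe agreed less closely on 2 arrays, with a median coefficient of variation of 22.4% for 12 h replicate 3 and 11.9% for the first one of untreated replicate 1, than on the other 14, where it was 3.60% to 7.38%. These 2 arrays stand apart, and values without them stand beside several of the differences below; the first array is left out by using the repeat array alone. Of the lists of marker genes, 10 of 11 neuronal and 10 of 11 astrocyte markers passed the filter on dim probes, as did 7 of 11 microglial, 9 of 10 oligodendrocyte-lineage, 7 of 8 fibroblast and pericyte, 7 of 7 radial glial and 4 of 7 endothelial markers. In RNA of a whole culture, fewer cells of a type and less RNA per cell cannot be told apart.

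Letters of the antioxidant response element were looked up in the promoters of these genes, from 250 bases before to 50 after the start, in RefSeq sequences of build GRCr8, which hold 33 of the 38. They are shown because NRF2 acts through such letters. On either strand, TGACNNNGC stood in 8 of 33 member promoters (Gclm, Gstp1, Me1, Nfe2l2, Prdx1, Prdx4, Prdx5 and Sod2) and in 12.2% of all 27457 promoters. The narrower TGANTCAGC, the core to which NRF2 binds together with small MAF proteins, overlaps it and was added after the promoters had been read; it stood in 4 of 33 (Gstp1, Me1, Prdx1 and Srxn1) and in 1.09% of all promoters. The stretches below carry the narrower match in capitals, and Gclm, which encodes a classical target, carries the broader one. They lie at chr3:161064786-161064815 on the plus strand for Srxn1, chr1:210769737-210769786 on the minus strand for Gstp1, chr8:96540382-96540431 on the minus strand for Me1, chr5:135383751-135383800 on the plus strand for Prdx1 and chr2:213031943-213031992 on the plus strand for Gclm, each written 5′ to 3′ along its gene.
Srxn1: ccgcgacctgcaaactcacccTGAGTCAGC
Gstp1: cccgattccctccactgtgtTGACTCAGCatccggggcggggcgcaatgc
Me1: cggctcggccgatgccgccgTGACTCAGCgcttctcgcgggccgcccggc
Prdx1: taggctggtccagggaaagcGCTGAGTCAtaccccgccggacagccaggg
Gclm: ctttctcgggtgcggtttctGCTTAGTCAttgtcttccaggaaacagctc
In Gstp1, Me1 and Srxn1 the capitals read along the gene, and in Prdx1 and Gclm they read on the opposite strand. A match is a description of letters, not of binding, and genes without one here may carry such letters farther away.

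No antioxidant gene passed the test at any exposure time. In limma's moderated test with Benjamini-Hochberg adjustment over 18173 features, 0 of 36 members were called at 2, 6, 12 or 24 h against untreated, in the mean of the 4 times, between 24 h and 2 h, or in the F test among the 4 times, and 0% of all features were called in each. The smallest adjusted p of a member was 0.996, at 12 h, and 1.00 in the others. At an unadjusted p under 0.05, 1 member stood among 217 features (1.19%) at 2 h, 0 among 134 (0.737%) at 6 h, 0 among 421 (2.32%) at 12 h, 0 among 156 (0.858%) at 24 h, 1 among 306 (1.68%) in the mean of the 4 times, 0 among 138 (0.759%) between 24 h and 2 h and 0 among 198 (1.09%) in the F test. That member was Gsta4 both times. The median log2 difference of the 36 members was -0.0053 at 2 h, -0.0042 at 6 h, -0.0020 at 12 h and 0.038 at 24 h, beside 0.0019, -0.0047, 0.022 and 0.013 over all features. The means of 17 members lay above untreated at 2 h, where 50.6% of all features did, of 17 at 6 h (47.9%), of 18 at 12 h (55.5%), of 24 at 24 h (54.7%) and of 18 in the mean of the 4 times (51%); 23 lay higher at 24 h than at 2 h (52.8%). All 3 treated samples lay above all 3 untreated ones for 1 member at 2 h (3.35% of features), 0 at 6 h (1.44%), 0 at 12 h (3.04%) and 0 at 24 h (1.37%), and below them for 1 each time (3%, 2.4%, 2.05% and 1.57%); for 24 h above 2 h it was 0 (1.91%) and below it 0 (0.996%). All 12 treated samples lay above all untreated ones for 0 members (0.0385%) and below them for 0 (0.022%). The members' residual SD between samples of a group had a median of 0.19 on the log2 scale, beside 0.20 over all features.

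**Figure D1:**
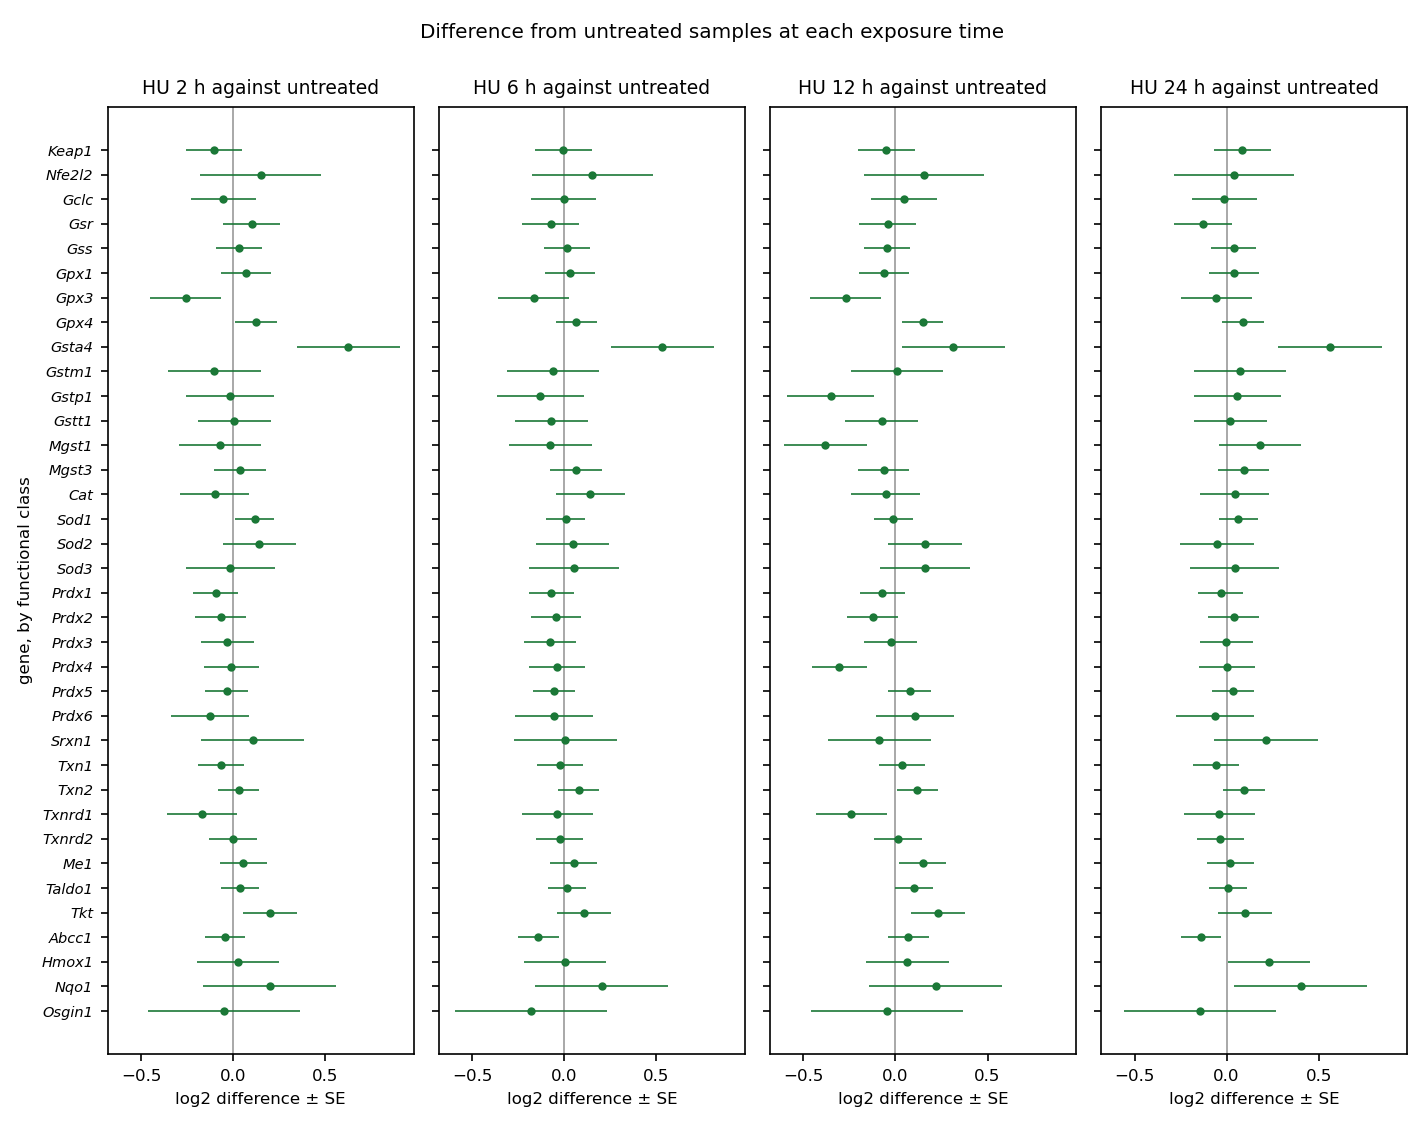
Log2 difference from untreated with its SE (x axis) of the 36 tested genes (y axis, by functional class) at 2, 6, 12 and 24 h. Of the 144 estimates, 123 lie within 1 SE of 0; Gsta4 has the highest difference at every time, from 0.31 to 0.62, with both arrays of untreated replicate 1 averaged.

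The regulators come first. Nfe2l2 encodes NRF2 itself. Its level, log2 relative to the 75th percentile of the array as for every level here, was -1.33, -0.67 and -1.84 in untreated replicates 1, 2 and 3. At 2 h it was -1.29, -0.55 and -1.55. At 6 h it was -1.32, -0.57 and -1.49. At 12 and 24 h it was -1.33, -0.76 and -1.28, then -1.44, -0.94 and -1.34, again in the order of replicates 1, 2 and 3. The treated and untreated ranges overlapped at every time, and the mean of the 4 times differed from untreated by 0.12 (SE 0.26). In each of the 5 groups the sample numbered 2 was the highest. Keap1, which encodes the repressor, was -0.86, -1.04 and -0.69 untreated and lay between -1.09 and -0.43 in treated samples, with both ends of that range at 24 h (replicates 3 and 2). Its mean over the 4 times differed by -0.018 (SE 0.12), and 24 h lay above 2 h by 0.19 (SE 0.15), or by 0.017 without 24 h replicate 2 and by 0.35 without 24 h replicate 3.

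The classical targets did not change past the test either. Nqo1 encodes a quinone reductase and is the usual reporter of NRF2 activity. It was -2.69, -1.44 and -1.99 in the untreated samples, -1.88, -1.42 and -2.24 at 2 h, and -1.90, -1.45 and -2.17 at 6 h. At 12 h it was -2.14, -1.21 and -2.13, and at 24 h it was -2.03, -1.03 and -1.86. The lowest of the 15 values was untreated replicate 1, and the groups overlapped at each time. The 24 h difference of 0.40 (SE 0.36) was its largest; it was 0.17 with the repeat array alone for untreated replicate 1 and 0.099 without 24 h replicate 2. The 2 arrays of untreated replicate 1 read -3.41 and -1.98, and without that sample the mean difference over the 4 times turned from 0.26 to -0.070; with the repeat array alone it was 0.018.

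Hmox1, which encodes the inducible heme oxygenase, was -0.82, -0.70 and -1.04 untreated and reached -0.95, -0.17 and -0.74 at 24 h, a difference of 0.23 (SE 0.22), with replicate 2 the highest; without that sample it was 0.0043. Its other treated samples lay between -1.16 and -0.41. Srxn1 encodes sulfiredoxin, which repairs over-oxidised peroxiredoxins. It was -1.19, -0.49 and -1.25 untreated and -1.04, -0.38 and -0.87 at 24 h, a difference of 0.21 (SE 0.28), or 0.026 without 24 h replicate 2. Gclc encodes the catalytic subunit for glutathione synthesis, and its untreated values of 0.85, 1.07 and 0.53 spanned the treated range of 0.57 to 1.08 but for its upper end. Its differences at the 4 times lay between -0.055 and 0.046. Osgin1, an oxidative-stress induced growth inhibitor gene, was dim: 13 of 16 arrays read it well above background, all 4 untreated, 3 at 2 h, 2 at 6 h, 3 at 12 h and 1 at 24 h. It was -6.33, -5.38 and -5.81 untreated and between -6.79 and -5.02 in treated samples.

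Txnrd1 encodes the cytosolic thioredoxin reductase and had 2 probes that went opposite ways. The brighter lay below untreated at every time, by up to -0.24 (SE 0.19) at 12 h. The other lay above, by 0.45 at 2 h, 0.27 at 6 h, 0.38 at 12 h and 0.32 at 24 h, or by 0.14, -0.041, 0.066 and 0.0051 with the repeat array alone. For this other probe the first array of untreated replicate 1 had 1 spot at -8.38 and 1 at -4.01, while the repeat array had its 2 spots at -4.41 and -4.24, next to -4.17 in untreated replicate 2 and -4.26 in replicate 3. The first set of differences includes the spot at -8.38.

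Gsta4 encodes the glutathione transferase that conjugates 4-hydroxynonenal, a product of lipid peroxidation. Its untreated values were 1.22, 2.57 and 2.24 in replicates 1, 2 and 3, its 2 h values 2.76, 2.58 and 2.56, and its 6 h values 2.57, 2.65 and 2.40. At 12 h it was 2.67, 2.39 and 1.90, and at 24 h it was 2.46, 2.40 and 2.84. Untreated replicate 1 was the lowest of all 15 samples, and untreated replicate 2 lay within the treated range. The difference was 0.62 (SE 0.28, unadjusted p = 0.0432, adjusted p = 1.00 in limma's test) at 2 h, 0.53 at 6 h, 0.31 at 12 h and 0.56 at 24 h. Over the 4 times it was 0.51 (SE 0.22, unadjusted p = 0.0383, adjusted p = 1.00).

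In Gsta4, 1 spot stood apart. The probe is printed in 2 spots; on the first array of untreated replicate 1 they read -3.15 and 2.62, and on the repeat array 2.68 and 2.72. On the other 14 arrays both spots lay between 1.40 and 2.93. With the repeat array alone for that sample, the difference was 0.13 at 2 h, 0.038 at 6 h, -0.18 at 12 h, 0.068 at 24 h and 0.014 over the 4 times. Without 12 h replicate 3, but with both arrays of untreated replicate 1 averaged, the 12 h difference was 0.52, which includes the spot at -3.15. The samples it leaves at 12 h, replicates 1 and 2, read 2.67 and 2.39. Beside them stood 2.70 on the repeat array and 2.57 and 2.24 in untreated replicates 2 and 3. Nqo1 had the same pair of readings on that first array, with spots at -4.91 and -1.90 against -2.01 and -1.95 on the repeat. The spot at -3.15 bore no outlier flag, nor did that at -4.91, so neither was left out.

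**Figure D2:**
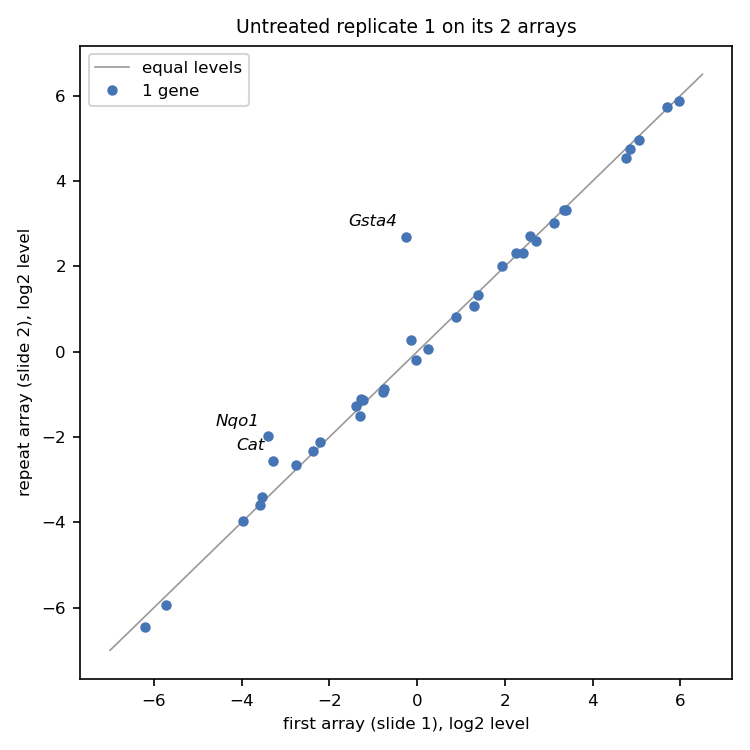
Level of each of the 36 genes in untreated replicate 1 on its first array (x axis) and on the repeat array (y axis), both log2 relative to the array's 75th percentile; the line marks equal levels. Gsta4, Nqo1 and Cat lie above the line, by 2.96, 1.42 and 0.73, and the median absolute difference of the 36 genes is 0.11.

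Gss, the second enzyme of glutathione synthesis, differed from untreated by -0.047 to 0.038 over the 4 times. Gsr, which regenerates reduced glutathione, differed by 0.10 at 2 h and by -0.13 at 24 h, and its 24 h minus 2 h difference was -0.23 (SE 0.16). Its highest sample, 2 h replicate 3 at -3.38, stood apart from the rest, which lay between -4.10 and -3.71. Among the peroxidases, Gpx4, which protects membrane lipids, lay above untreated at each time, by 0.066 to 0.15; its second probe lay between -0.072 and 0.014. Gpx1, the main cytosolic form, differed by -0.061 to 0.070.

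Gpx3, the secreted form, was dim and was well above background on 13 of 16 arrays. It read -5.83, -5.92 and -5.62 untreated, -6.21, -5.92 and -6.01 at 2 h, and -6.17, -5.96 and -6.04 at 12 h. All 3 samples at 2 h and at 12 h lay below all 3 untreated ones, though at 2 h the nearest pair, both numbered 2, read -5.92 alike; 3% of all features lay so at 2 h and 2.05% at 12 h. Its differences were -0.26 (SE 0.19) at 2 h, -0.17 at 6 h and -0.27 at 12 h. Under the normexp background correction the 2 h difference was 0.053, so the direction of this dim probe turned with the correction.

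The other transferases spread around 0 until 24 h. At 12 h Mgst1, a microsomal transferase, differed from untreated by -0.38 (SE 0.22), and Gstp1, a cytosolic one, by -0.35 (SE 0.24). Both were lowest in 12 h replicate 3, one of the arrays that stand apart: Mgst1 at -4.23 and Gstp1 at 1.99. Without it the Mgst1 difference was -0.14 and that of Gstp1 -0.10. At 24 h the means of 6 of 6 transferases lay above untreated, where 54.7% of all features did. Without 24 h replicate 2 it was 3 of 6, with Gstt1, Gstm1 and Gstp1 below. Mgst3, the other microsomal member, had the smallest spread of the class. Mgst1 gave the smallest p of the members in the F test among the times (unadjusted p = 0.147, adjusted p = 1.00).

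Of the superoxide dismutases and catalase, Sod2, the mitochondrial dismutase, had 2 h values of -1.11, -1.17 and -1.01, all above the untreated values of -1.19, -1.20 and -1.33. Such separation upward was found for 3.35% of all features at 2 h. The difference was 0.14 (SE 0.20), and the 24 h values of -0.96, -1.71 and -1.22 lay on both sides of untreated. Sod1, the cytosolic form, differed by -0.013 to 0.12, and Sod3, the extracellular one, by -0.016 to 0.16. The 12 h differences of Sod2 (0.16) and Sod3 (0.16) were -0.059 and -0.11 without 12 h replicate 3. Cat, which encodes catalase, differed by -0.10 to 0.14, with its untreated replicate 1 read as -3.28 and -2.56 on its 2 arrays; with the repeat array alone it differed by -0.22 to 0.021.

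The 6 peroxiredoxins, which reduce hydrogen peroxide, differed little. Prdx1, Prdx2, Prdx3, Prdx5 and Prdx6 lay between -0.12 and 0.10 at the 4 times. Prdx4, the form of the endoplasmic reticulum, differed by -0.31 (SE 0.15, unadjusted p = 0.0620, adjusted p = 0.996) at 12 h, and by -0.088 without replicate 3. Its 12 h values were -0.11, 0.10 and -0.66, and the lowest was again replicate 3. Txn1 and Txn2, the cytosolic and mitochondrial thioredoxins, and Txnrd2, the mitochondrial reductase, differed by -0.065 to 0.12.

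The means of the 3 tested genes grouped here under NADPH supply lay above untreated at every time, and 0 passed the test. Of the 3, Me1 is the one whose enzyme makes NADPH itself. Means above untreated were found for 50.6%, 47.9%, 55.5% and 54.7% of all features at 2, 6, 12 and 24 h. Tkt, transketolase, differed by 0.20 (SE 0.15) at 2 h, 0.11 at 6 h, 0.23 at 12 h and 0.10 at 24 h. Without 12 h replicate 3 its 12 h difference was 0.081. Me1, malic enzyme, differed by 0.020 to 0.15, the highest at 12 h, where it was 0.008 without replicate 3, and Taldo1, transaldolase, by 0.0094 to 0.10. The second Me1 probe lay between -0.076 and -0.0027. Abcc1, which exports glutathione conjugates, was -0.11, -0.09 and 0.04 untreated, -0.14, -0.27 and -0.17 at 6 h and -0.27, -0.15 and -0.15 at 24 h. All 3 samples at 6 h, and all 3 at 24 h, lay below all untreated ones, as did 2.4% and 1.57% of all features. The differences were -0.14 (SE 0.11) at 6 h and -0.14 at 24 h. The other 2 Abcc1 probes lay above untreated at 6 h, by 0.025 and 0.043. At 24 h the first of these read -0.94, -0.41 and -0.47, against -0.64, -0.11 and -0.52 untreated. The second read -6.37, -5.59 and -6.34, against -6.65, -5.68 and -6.01, so both overlapped untreated.

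A wider list of 71 genes of the same pathway, of which 62 were tested, had 0 past the threshold at each time, as had 0% of all features. Its medians were 0.014, 0.0023, 0.016 and 0.035 at 2, 6, 12 and 24 h, beside 0.0019, -0.0047, 0.022 and 0.013 over all features. At an unadjusted p under 0.05 the list held 2 genes at 2 h, 1 at 6 h, 2 at 12 h and 1 at 24 h, beside 1.19%, 0.737%, 2.32% and 0.858% of all features. Aifm2, which encodes the coenzyme Q reductase FSP1, was among them each time, above untreated by 0.86 (SE 0.29, unadjusted p = 0.00957) at 2 h, 0.77 at 6 h, 0.82 at 12 h and 0.76 at 24 h. Its probe read -8.33 and -0.78 in the 2 spots of the first array of untreated replicate 1 and -0.79 and -0.73 on the repeat array, beside -1.13 and -1.31 in untreated replicates 2 and 3 and -1.12 to -0.69 in the 12 treated samples. With the repeat array alone the differences were 0.23 (unadjusted p = 0.132), 0.14, 0.19 and 0.13, and 0 of the 4 had an unadjusted p under 0.05. Its other probe read -3.73 to -3.09 on the untreated and -3.74 to -3.10 on the treated arrays. Akr1b8, an aldo-keto reductase gene, differed from untreated by -0.67 (SE 0.18, unadjusted p = 0.00295) at 2 h. At 6 h it differed by -0.24, and at 24 h it lay 0.64 above 2 h. Ggt1, the enzyme that cleaves extracellular glutathione, differed by -0.70 (SE 0.20, unadjusted p = 0.00369) at 12 h, where 12 h replicate 3 had spots at -8.31 and -5.77; without that sample the difference was -0.42 (unadjusted p = 0.0125). The genes next in order were Ccs (-0.16, unadjusted p = 0.160) at 6 h and Aldh2 (0.37, unadjusted p = 0.0834) at 24 h.

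The summed signal of the 10 astrocyte markers was 113 to 139 in untreated and 139 to 178 in treated samples. The 113 was untreated replicate 1 and the 178 was 12 h replicate 3, the samples of the 2 arrays that stand apart. Untreated replicates 2 and 3 read 139 and 122, and 12 h replicates 1 and 2 read 149 and 154. At 12 h all 10 had means above untreated, where 55.5% of all features did. Of the 10, 2 had an unadjusted p under 0.05, as did 2.32% of all features. The summed signal of the 10 neuronal markers was 103 to 111 in untreated and 94.0 to 137 in treated samples, the 137 again in 12 h replicate 3. The part of these levels in the members' differences was not tested.

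Several NRF2 genes differed with the replicate number that the sample titles carry. In every group, untreated included, the sample numbered 2 read higher for Nfe2l2, Nqo1, Srxn1, Hmox1, Gclc, Gstm1, Gstt1, Mgst1 and Osgin1 than the samples numbered 1 and 3. This was 9 of 36 members, where 2.59% of all features showed the same. The sample numbered 1 was highest in every group for 0 members (0.149% of features) and that numbered 3 for 0 (0.693%). Number 2 was lowest in every group for 0 (1.44%), number 3 for 0 (0.352%) and number 1 for 1, Taldo1 (0.523%). For 8 of the 9 members highest in number 2, all but Mgst1, all 5 samples numbered 2 lay above all 10 others, where 1.46% of all features did. The pattern was seen before it was tested.

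**Figure D3:**
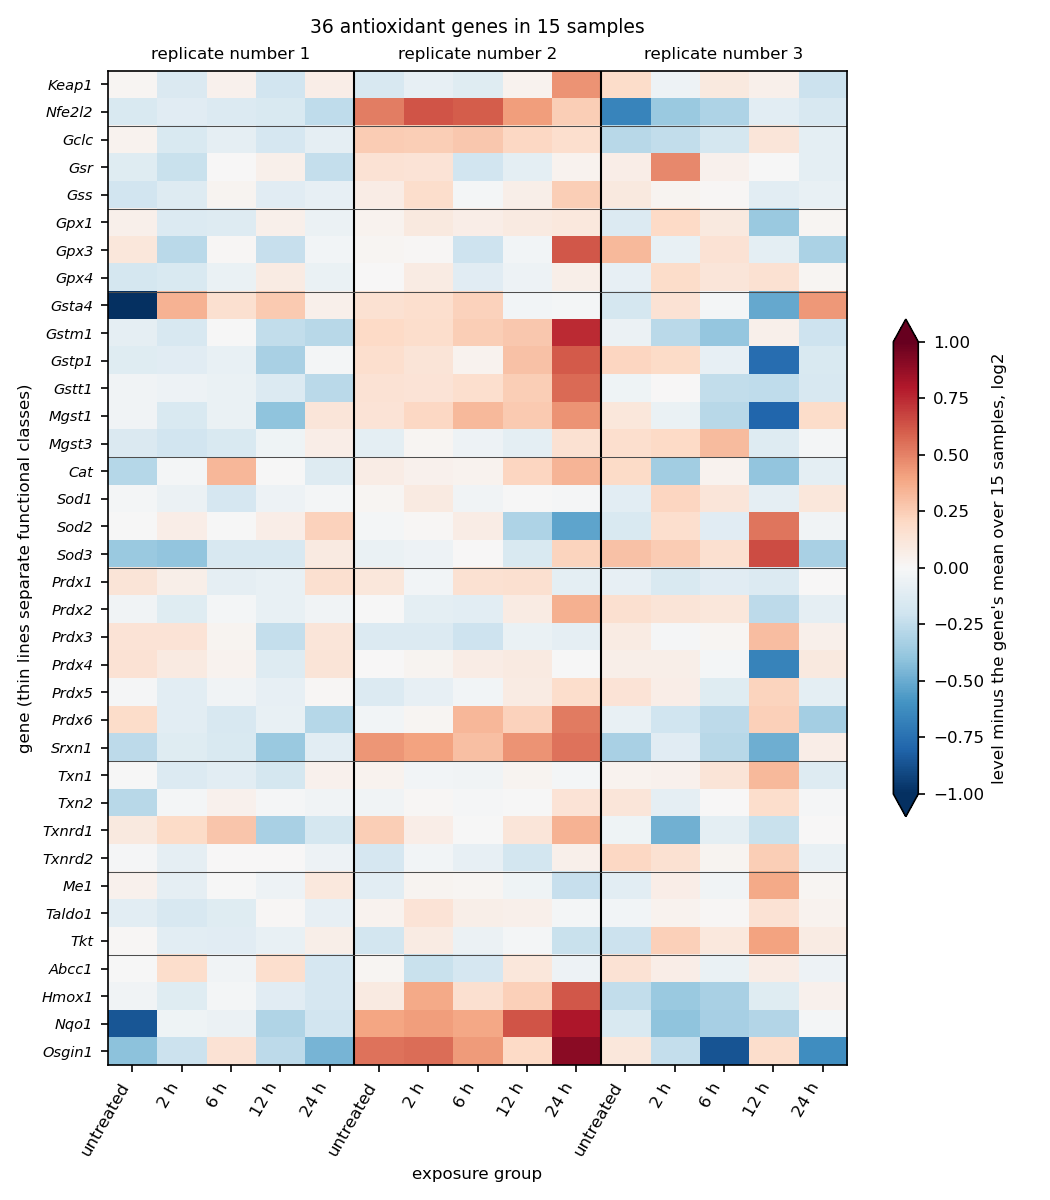
Level of each of the 36 genes (rows, by functional class) in each of the 15 samples (columns, by replicate number and then exposure), as log2 distance from the mean of the gene; red is above and blue below, and colours stop at 1 and -1. Nfe2l2, Srxn1, Nqo1, Hmox1, Gclc, Gstm1, Gstt1, Mgst1 and Osgin1 lie above their mean in all 5 columns of number 2.

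In a limma fit of group and replicate number over all features, the moderated F test of the number called 3 of 36 members and 151 of 18173 features (0.831%) at an adjusted p under 0.05. All 3 members were higher in number 2, as were 130 features (0.715%), while 21 features (0.116%) were lower. Srxn1 was 1.56-fold higher in number 2 than in the mean of numbers 1 and 3, a log2 difference of 0.64 (SE 0.074, adjusted p = 0.0042). Its samples numbered 2 lay between -0.63 and -0.38 and the 10 others between -1.42 and -0.87. Nfe2l2 was 1.65-fold higher, by 0.72 (SE 0.096, adjusted p = 0.011), at -0.94 to -0.55 against -1.84 to -1.28. Nqo1 was 1.73-fold higher, by 0.79 (SE 0.12, adjusted p = 0.021), at -1.45 to -1.03 against -2.69 to -1.86. In none of these 3 genes did the 2 sets of samples overlap.

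Hmox1 came next, with 0.44 (SE 0.089, adjusted p = 0.0966), a median level of -0.55 in number 2 and of -0.91 in the others. Gstm1 followed with 0.49 (adjusted p = 0.153), Gclc with 0.34 (adjusted p = 0.165), Gstt1 with 0.38 (adjusted p = 0.201), Osgin1 with 0.79 (adjusted p = 0.204) and Mgst1 with 0.41 (adjusted p = 0.263). These 6 did not pass the threshold. Number 2 was the highest sample for each of them in 5 of 5 groups. At an unadjusted p under 0.05, 10 of 36 members stood higher in number 2, where 5.11% of features did (9.1% in either direction); the tenth was Gstp1, with 0.37 (SE 0.13), highest in 3 of 5 groups.

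**Figure D4:**
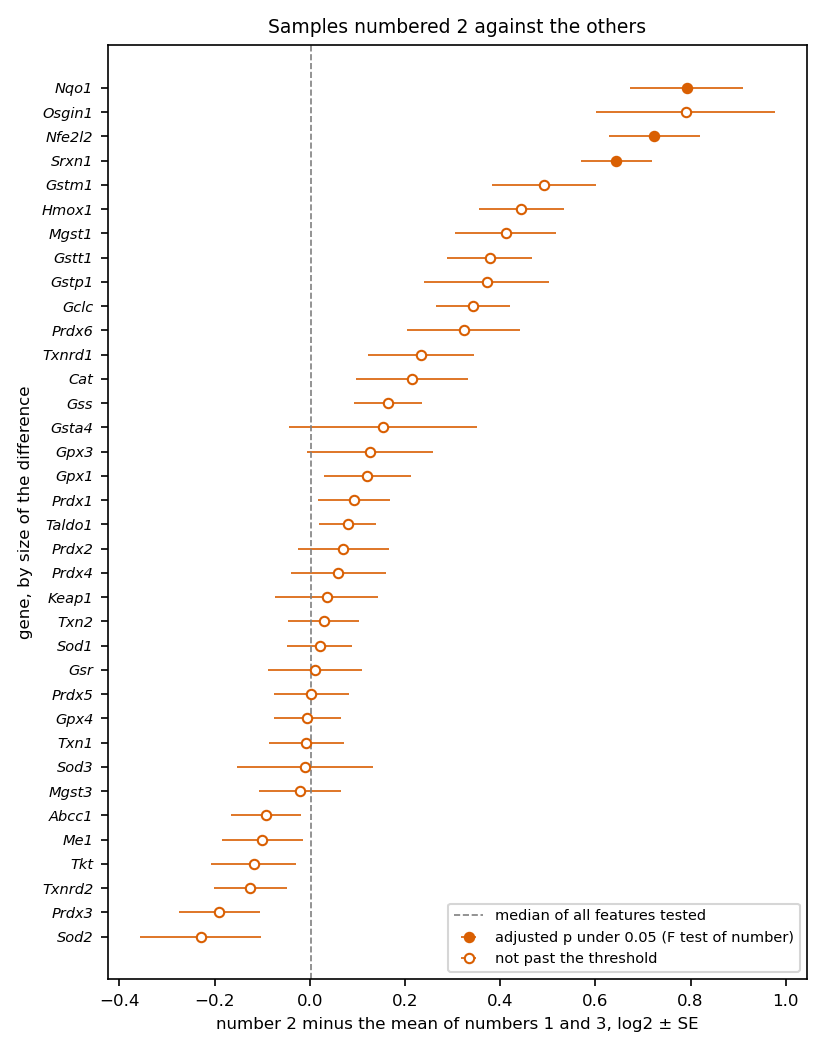
Difference between samples numbered 2 and the mean of numbers 1 and 3, log2 with its SE (x axis), for the 36 genes (y axis); filled points are past the threshold in the F test of the number and the dashed line is the median of all features. Srxn1, Nfe2l2 and Nqo1 are filled, and Sod2, at -0.23, is the lowest.

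Not every antioxidant gene shared this. Keap1 differed between number 2 and the others by 0.036 (SE 0.11), Sod1 by 0.021, Gpx4 by -0.0051, Txn1 by -0.0071 and Prdx5 by 0.0028. Sod2 differed by -0.23 (SE 0.13) and Prdx3, the mitochondrial peroxiredoxin, by -0.19 (SE 0.085). Txnrd1, a classical target, lay higher by 0.23 (SE 0.11, adjusted p = 0.596) with its brighter probe. Its other probe read -4.50 to -4.08 in number 2, within the range of -5.26 to -3.83 in the other samples. The -5.26 was untreated replicate 1 with its 2 arrays averaged. The median over the 36 members was 0.086, beside 0.0021 over all features. By class, the transferases had a median of 0.37, the superoxide dismutases and catalase of 0.0053 and the NADPH supply group of -0.10. Of the 9 members that were highest in number 2 of every group, 7 had a promoter sequence, and 1 of these 7, Nfe2l2, held TGACNNNGC and 1, Srxn1, TGANTCAGC.

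**Figure D5:**
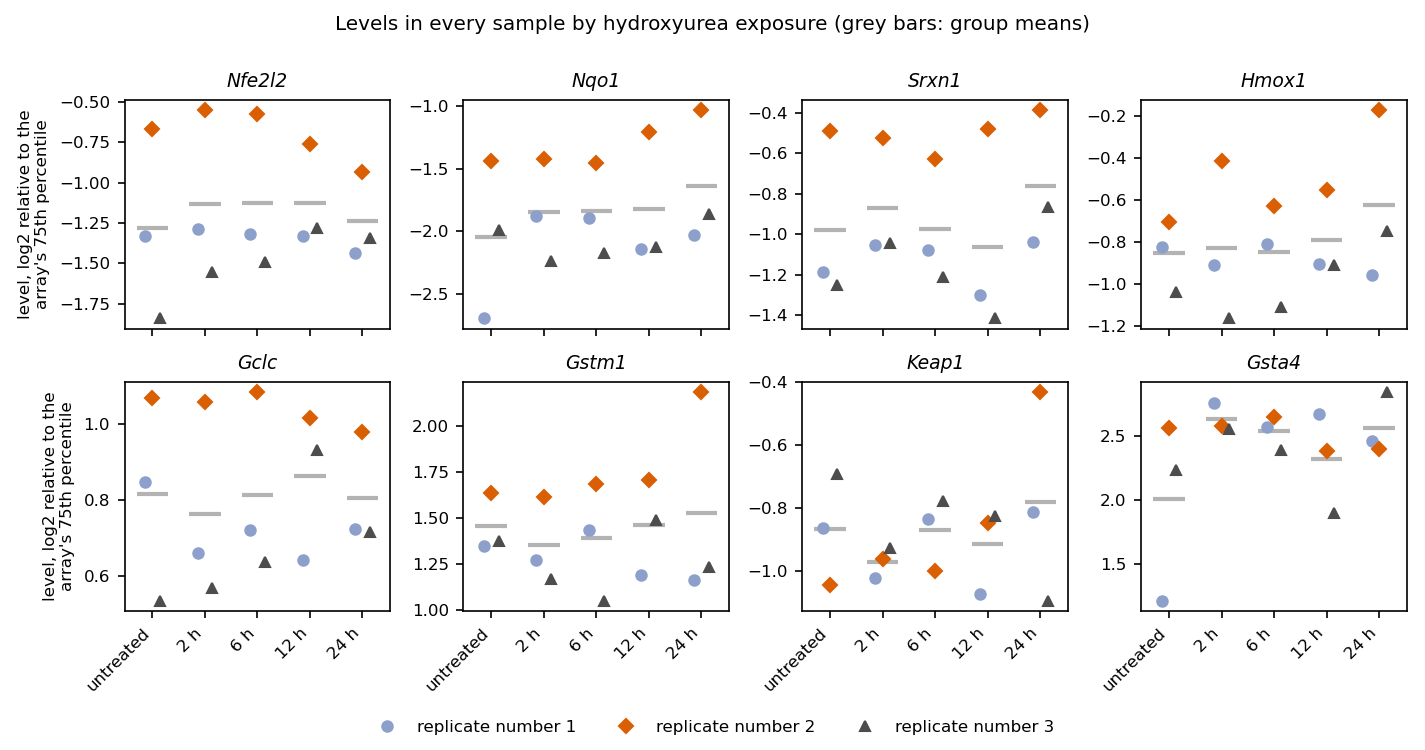
Level of 8 genes (y axes, log2 relative to the array's 75th percentile, scaled per gene) in every sample by exposure (x axes), with the symbol giving the replicate number and grey bars the group means of 3 samples. In the panels of Nfe2l2, Nqo1, Srxn1, Hmox1, Gclc and Gstm1 the diamond of number 2 is the highest of each group; for Keap1 and Gsta4 it is not.

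The samples numbered 2 lay on both slides, untreated, 2 h and 6 h on slide 1 and 12 h and 24 h on slide 2. Number 2 can therefore be told apart from slide. Number 1 lay on slide 1 but for 24 h and the repeat array, and number 3 on slide 2 but for 24 h. The difference between numbers 1 and 3, which the F test also covers, is thus nearly that between the slides. Within a group and slide, number 2 had 1 array to be compared with. On slide 1 that was number 1, and on slide 2 it was 12 h replicate 3 or 24 h replicate 1. Against these, Srxn1 was higher in number 2 by 0.45 to 0.75 on slide 1 and by 0.65 to 0.94 on slide 2. The 0.94 is against 12 h replicate 3, one of the arrays that stand apart. Nfe2l2 was higher by 0.71 to 0.75 and by 0.50 to 0.52, and Nqo1 by 0.44 to 1.96 and by 0.92 to 0.99. The 1.96 is against the first array of untreated replicate 1; against its repeat array, on the other slide, the gap was 0.54. With the repeat array alone for untreated replicate 1 and without 12 h replicate 3, the F test called 4 members, these 3 and Gclc, and 0.990% of features. With the first array alone, Nqo1 was no longer called (2 members, 0.776% of features). Of the members, Srxn1 alone was called without untreated replicate 2, without 2 h replicate 2 or without 6 h replicate 2. The shares of all features called fell as well, to 0.347%, 0.33% and 0.259%. Nqo1 was also not called in the F test without 2 h replicate 3 (adjusted p = 0.053) or without 6 h replicate 3 (0.060). The same held without 12 h replicate 2 (0.11), without 24 h replicate 2 (0.11) and without the filter on dim probes (0.062).

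The labels do not say what samples of the same number share. In the authors' deposited scores, 24 h replicates 1 and 3 are exchanged relative to the scanner files used here, which leaves number 2 as it is. With that exchange the F test called 5 members and 3.36% of features. The exchange also puts number 1 on slide 1 and number 3 on slide 2, but for the repeat array of untreated replicate 1. The rise therefore cannot be told apart from a slide difference. Other RNAs differed with the replicate number too. Of the fibroblast and pericyte markers, 3 of 7 were called and lower in number 2, as were 0.116% of all features. The other 4 had higher means in number 2 and were not called. The median over the 7 was 0.013, beside 0.0021 over all features. Number 2 differed for Col1a1 by -1.78 (adjusted p = 0.0156), Col3a1 by -1.93 (adjusted p = 0.0241) and Col1a2 by -1.36 (adjusted p = 0.0397). The summed signal of the 7 reached from 1.41 to 1.5 in number 2 and 1.70 to 3.30 in the others. Of the radial glial markers, Vim was called higher, by 0.55 (adjusted p = 0.0141), as were 0.715% of all features, and 0 of the other 6 were called. All 7 microglial markers had higher means in number 2 and 0 were called, with sums of 0.881 to 1.12 against 0.740 to 0.996. Among astrocyte markers 0 of 10 were called (sums of 139 to 154 against 113 to 178), and among neuronal ones 0 of 10 (96.9 to 112 against 94.0 to 137), as were 0 of 9 of the oligodendrocyte lineage and 0 of 4 of endothelium. The part of these cell types in the members' difference was not tested.

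In the wider list, number 2 was highest in all 5 groups for 8 of 62 genes and lowest for 2, beside 2.59% and 1.44% of all features. The F test of the number called 3 of the 62, all higher in number 2, as were 0.715% of all features. Gsta1, a transferase known as an NRF2 target in rodents, was 1.98-fold higher, by 0.99 (SE 0.072, adjusted p = 0.000206), at 0.53 to 0.72 against -0.60 to -0.28. The metallothioneins Mt2A, by 0.52 (SE 0.068, adjusted p = 0.0118), and Mt1, by 0.80 (SE 0.11, adjusted p = 0.0154), were the others. Gpx7, a peroxidase of the endoplasmic reticulum, lay 0.80 higher without passing (adjusted p = 0.0626).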

How the data were processed

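The scanner files, as deposited, give each spot's intensity; per the file headers they were written by Agilent Feature Extraction 11.5.1.1 for a design of rat build rn4; the processed signal is an intensity with background subtracted and is not scaled between arrays. The authors' deposited value table is a score, which was checked to be the standard score of each array's log signal (correlation with its own scanner file 0.999996). Its columns of 24 h replicates 1 and 3 match each other's scanner file instead; files were used as labelled, and the exchange was an alternative.

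Spots of a probe without an outlier flag were averaged as log2 processed signal minus the array's 75th percentile over non-control spots, and the 2 arrays of untreated replicate 1 were averaged. Probes were named by matching accessions to RefSeq genes (18758 of 30367 probes). Probes entered the fit where all arrays of 1 or more groups read them well above background, and the brightest probe stood for a gene. The 5 groups entered 1 fit of 15 samples (limma 3.58.1, R 4.3.3; moderated two-sided tests with 10 residual and 3.55 prior degrees of freedom), with p-values adjusted by Benjamini-Hochberg over 18173 features at 0.05, and replicate number with a moderated F test, added after values were seen. P-values given without the word adjusted are unadjusted. Both tests were checked on simulated data. The number of arrays limits the precision. The members and lists were chosen with earlier results of these data known. Genes named with values are the regulators, the classical targets, the 3 members with the smallest p in each comparison, dim members, the extreme of each class, and 2 wider-list genes per time. Alternatives were the background correction, the normalization, the deposited scores, the filter, single probes, slide, replicate block and leaving samples out.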

Additional observations from a re-analysis of the deposited data

Results flagged for a closer look

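For 2 genes, the 3 samples of one exposure time all lay on one side of the untreated mean and the 3 samples of another time all on the other side, as did 4.68% of all 18173 features for some pair of times. Mgst3 lay at -0.064 at 12 h and at 0.093 at 24 h on the log2 scale, and the F test among the 4 times gave an unadjusted p = 0.706. Abcc1 lay at -0.14 at 6 h, at 0.070 at 12 h and at -0.14 at 24 h, with an unadjusted p = 0.227 in that test. This is its brightest probe. The other 2 Abcc1 probes had samples on both sides of their untreated mean at 6, 12 and 24 h. The F test covers all 4 times at once; the single differences between these pairs of times were not tested.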

How the results depend on the processing

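Under the 29 other settings, the treatment comparisons called 0 members throughout; the smallest adjusted p of a member over them was 0.542 (12 h against untreated, without 12 h replicate 2). The medians of the members moved from the reported ones by less than their SD between samples (0.084), except at 24 h, where the median went from 0.038 to -0.050 without 24 h replicate 2 (range -0.050 to 0.093 over samples left out). Uncalled differences turned sign as follows. With normexp correction (median spot and background signals), Gpx3 came to 0.053 at 2 h, 0.18 at 6 h and 0.15 over the 4 times, and over the 4 times Keap1 came to 0.026 and Osgin1 to 0.20. Within slide 2, Gsta4 came to -0.072 at 6 h, -0.037 at 24 h and -0.085 over the 4 times, Keap1 to 0.026, Gclc to 0.083 and Osgin1 to 0.036. Within slide 1, Tkt came to -0.013 at 12 h, Keap1 to -0.10 between 24 h and 2 h, Nfe2l2 to -0.11, Hmox1 to -0.022 and Srxn1 to -0.085. With the repeat array alone, Keap1 came to 0.0088 and Gclc to 0.0054, and with every probe fitted on its own the mean over the 2 probes of Txnrd1 came to 0.12. Leaving out 1 sample, the mean over the 4 times ranged from -0.16 to 0.43 for Nfe2l2, -0.11 to 0.068 for Keap1, -0.0094 to 0.16 for Hmox1, -0.070 to 0.56 for Nqo1, -0.15 to 0.12 for Gclc, -0.078 to 0.30 for Srxn1 and -0.35 to 0.12 for Osgin1. The cause was not tested.

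The replicate number called 1 to 4 members (47 to 368 features, 0.259% to 2.02%) when 1 sample was left out. With 24 h replicates 1 and 3 exchanged it called 5 (Hmox1, Nfe2l2, Nqo1, Sod3 and Srxn1), beside 611 features (3.36%). Without a filter it called 2 (102 features, 0.373%), with the deposited scores 4 (484 features, 2.66%) and with normexp 3 (98 features, 0.541%). The deposited scores carry the same exchange, so their count does not reflect the scale of the values alone. Differences of Srxn1 ranged from 0.59 to 0.68, of Nfe2l2 from 0.68 to 0.79 and of Nqo1 from 0.72 to 0.85 when 1 sample was left out. With the replicate number as a block the treatment comparisons called 0 members; every group holds each number once, so a block leaves the fitted differences as they are (Gsta4 at 2 h, 0.62) and changes only their errors. Same-numbered samples deviated together in 19 of 30 pairs (correlation over 0.1, mean 0.092, lowest -0.42). Differently numbered ones did so in 11 of 60 pairs (mean -0.046, highest 0.42). Deviations were taken from the mean of the 3 samples of a group, so this second mean largely follows from the first and adds no contrast. Of 15 samples, 7 correlated best with their own number, where 3 numbers are possible. With the exchange these were 24 of 30, 6 of 60 and 13 of 15 (lowest same-numbered correlation 0.0060), which comes from the data, not the design. The exchange also puts number 1 on slide 1 and number 3 on slide 2 in every group, but for the repeat array. The closer agreement therefore cannot be told apart from a slide difference. Slide as a block with sample as a random effect could not be fitted, because only 1 sample has 2 arrays; a numeric slide term, chosen after seeing the data, took its place. Which genes are given without single arrays or samples was chosen after seeing the data. Dim probes (Gpx3, Osgin1, Gclm) are limited by signal over background.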

Other observations

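Other genes differed with the replicate number too. The 10 features with names and the smallest p in its F test, a choice made after their values were seen, were RT1-CE16, RT1-CE2, Cebpd, Tspo, Gsta1, Ttr, Cybrd1, Pla2g7, RT1-CE7 and Oasl2, and number 2 was the highest in 5 of 5 groups for each. Gsta1 is on the wider antioxidant list and the other 9 are not. RT1-CE16, RT1-CE2 and RT1-CE7 are class I major histocompatibility genes, near-identical copies whose probes may share targets. RT1-CE16 was 2.65-fold higher (log2 1.41, SE 0.064), at -1.72 to -1.47 in number 2 against -3.22 to -2.85 in the others. Pla2g7, which encodes a phospholipase that cleaves oxidised phospholipids, was 3.35-fold higher (log2 1.75, SE 0.14). Tspo, an outer mitochondrial membrane protein used as a marker of reactive glia, was 2.69-fold higher (log2 1.43, SE 0.099), and Cebpd, a transcription factor of the acute-phase response, 1.90-fold (log2 0.93, SE 0.064). Ttr, the transthyretin gene and a marker of choroid plexus epithelium, was 2.96-fold higher (log2 1.56, SE 0.12), at 3.18 to 4.03 against 1.62 to 2.26.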
